A study of Canis lupus familiaris with 48 samples.

Results

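The genes described here are 56 dog genes that were near silent in control cultures of MDCK I cells and gave reads in every culture after NaCl or raffinose was added. The table of read counts they were chosen from lists 32704 annotated genes, and 25518 of these had at least 1 read over the 48 libraries. A level is given in counts per 1000000 reads (CPM), the reads of a gene divided by all reads of its library in the table. A member had a mean of under 0.5 CPM in the control libraries, means of at least 2 CPM after both NaCl and raffinose, and a NaCl mean of 0.625 to 1.6 times the raffinose mean. Of 12644 genes with a control mean under 0.5 CPM and a read in any library, 59 met these limits, and 3 of them (ENSCAFG00000032573, ENSCAFG00000013396 and ENSCAFG00000006942) were omitted by the rule.

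MDCK I is an established epithelial line from dog kidney. Cells were cultured for 144 h, and over the last 24 h the medium held an extra 200 mOsm of NaCl, of raffinose or of urea, which brought it to 500 mOsm; the control stayed in regular medium at 300 mOsm. Each of these 4 groups had 12 libraries, 1 from each of the same 12 cell passages between 1 and 19. The labels name no deletion or transgene in any group. The replicates are passages of 1 line, so p-values measure the spread between passages.

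Cells of the kidney medulla live in fluid that is rich in salt and urea. NaCl and the sugar raffinose stay largely outside cells, so they draw water out and are called impermeant or hypertonic solutes, whereas urea crosses membranes and raises the osmolality on both sides. Hypertonic medium is known to activate the transcription factor TonEBP, also called NFAT5, which turns on genes for the uptake and synthesis of organic osmolytes and for chaperones.

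The count table pairs its Ensembl identifiers with no gene symbols, and 0 of them could be paired with one here. The members are therefore given by identifier and by position on the dog genome build CanFam3.1, and no role is given to any of them. Markers of kidney epithelium or of other cells could not be looked up for the same reason. NaCl libraries held 6.77 to 14.4 megareads (M), raffinose libraries 6.6 to 16.16 M, urea libraries 3.92 to 15 M and control libraries 6.08 to 16.06 M. One CPM was thus 3.92 reads in the shallowest library and 16.16 in the deepest, and a count of 0 allows up to 3 reads. Such limits cover counting error only.

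The rule fixed that the members were higher after NaCl and raffinose than in control, so these contrasts are described without a test. Summed over the 56 genes, the level was 217 CPM at the lowest, 241 at the median and 288 at the highest of the NaCl libraries. The same sum was 236, 268 and 310 CPM in the raffinose libraries. It was 15.4, 17.4 and 21.7 CPM in the urea libraries, against 10.1, 12.4 and 15.8 CPM in the control libraries. Every NaCl and every raffinose library lay far above every urea and control library in this sum, while urea and control libraries overlapped. Fewer expressing cells and less RNA per cell cannot be told apart in such bulk libraries.

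The median member had a mean level of 3.08 CPM after NaCl, 3.67 CPM after raffinose, 0.172 CPM after urea and 0.233 CPM in control. All 56 members had reads in each of the 24 NaCl and raffinose libraries. Reads in every library of the group were found for 18 members after urea and for 6 members in control. In single libraries, 54 members were higher in each NaCl library than in every control library; among all 12654 genes tested this held for 9.3%. For raffinose 55 members were above every control library, with a background of 9.8%. Since the rule used these contrasts, the counts describe how it chose. Levels after urea were not used by the rule, although the NaCl and raffinose levels were. The NaCl libraries lay above every urea library in 51 members (11.3% of all tested genes) and the raffinose libraries in 52 (11.0%).

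**Figure D1:**
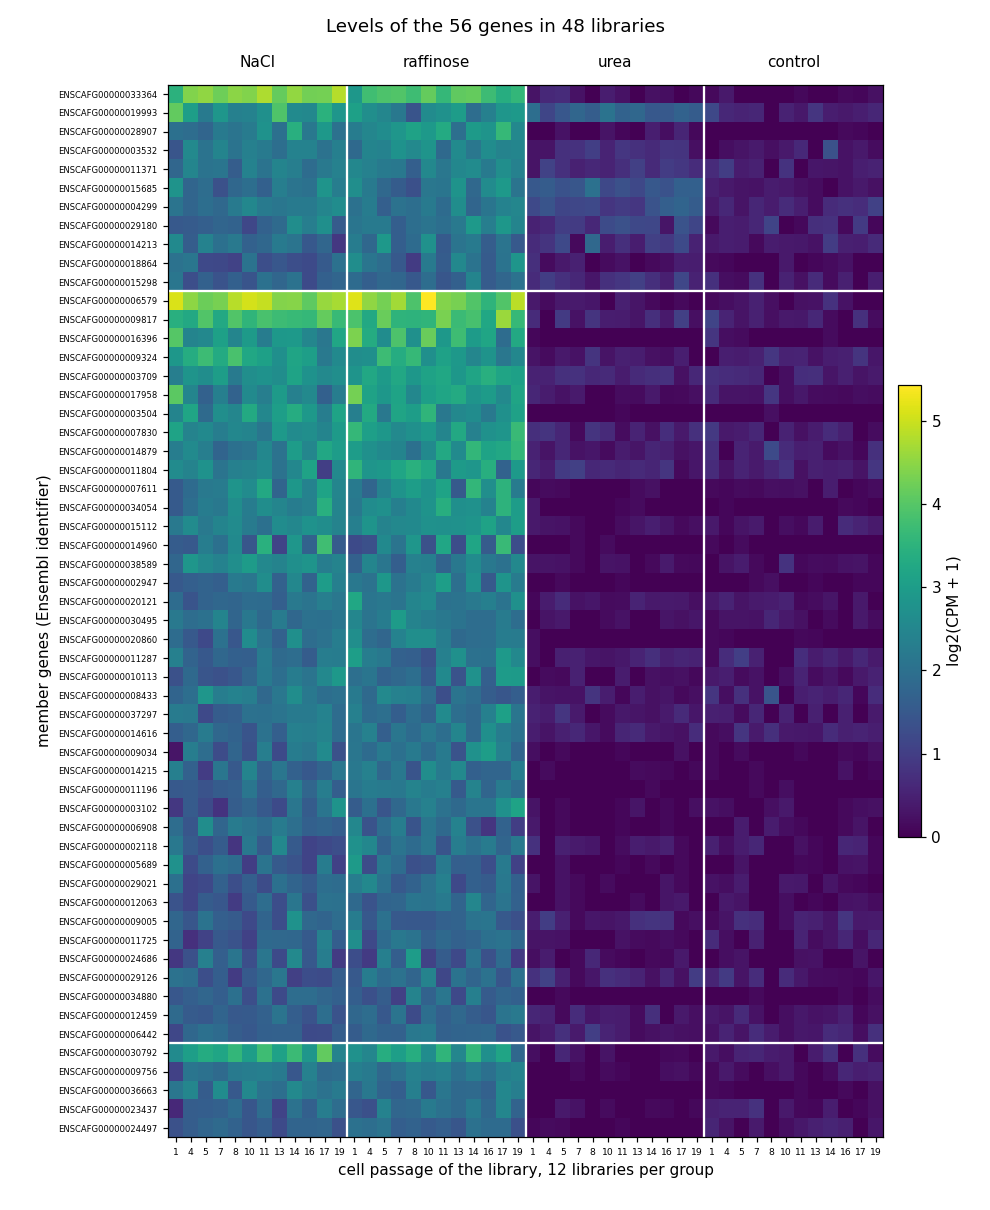
Level of each of the 56 members (rows) in each of the 48 libraries (columns, by group and cell passage), as log2(CPM + 1) by colour. White lines part the groups and part the 11 members called higher after urea than in control (top), the 40 not called and the 5 called lower (bottom). The NaCl and raffinose libraries are brighter in nearly all cells, with exceptions such as ENSCAFG00000009034 at 0.23 CPM in the NaCl library of passage 1, and the 24 urea and control libraries are dark in nearly all.

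The member with the most reads was ENSCAFG00000006579, a gene of 5 exons on the minus strand at chr25:9181822-9200046. Its level was 15.8 CPM at the lowest, 22.4 at the median and 33.9 at the highest after NaCl, and 10.5, 19.6 and 42 CPM after raffinose. It was 0, 0.169 and 0.4 CPM after urea, against 0, 0.173 and 0.716 CPM in control. The highest urea or control library thus stayed far under the lowest NaCl or raffinose library, and urea and control ranges overlapped. The ratio of means to control was 123 for NaCl and 112 for raffinose.

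ENSCAFG00000033364, at chr2:30832303-30857290 with 2 exons, averaged 20.1 ± 4.46 CPM after NaCl, 12.8 ± 3.12 CPM after raffinose, 0.211 ± 0.198 CPM after urea and 0.0708 ± 0.0946 CPM in control (SD, n = 12 each). These means were 283 times the control mean for NaCl and 180 times for raffinose. Its level was 10.2 CPM at the lowest, 20.2 at the median and 27.2 at the highest after NaCl, and 6.27, 12.4 and 16.8 CPM after raffinose. Passage 1 was the lowest library in both of these groups. With a NaCl to raffinose ratio of 1.57 it stood highest among the members in that ratio.

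ENSCAFG00000009817 is a gene of a single exon at chr31:33385755-33386885. Its level was 8.69, 11.6 and 16.7 CPM (lowest, median, highest) after NaCl and 8.35, 11.8 and 23.5 CPM after raffinose. It was 0, 0.338 and 1.04 CPM after urea, against 0, 0.281 and 1.17 CPM in control. Passage 17 gave the highest library after NaCl, raffinose and urea alike, while in control passage 1 did.

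ENSCAFG00000016396 (chr9:22838161-22847559), ENSCAFG00000030792 (chr29:31784610-31823728) and ENSCAFG00000009324 (chr28:11400446-11419710) completed the 6 members with the most reads. ENSCAFG00000016396 averaged 6.35 ± 3.09 CPM after NaCl and 9.65 ± 5.1 CPM after raffinose, with 1 read in all 12 urea libraries together and 12 reads in the 12 control libraries. ENSCAFG00000030792 averaged 8.88 ± 3.48 CPM after NaCl, 6.98 ± 2.7 CPM after raffinose, 0.104 ± 0.15 CPM after urea and 0.323 ± 0.236 CPM in control. ENSCAFG00000009324 averaged 7.96 ± 2.9 CPM after NaCl, 6.81 ± 2.74 CPM after raffinose, 0.274 ± 0.193 CPM after urea and 0.399 ± 0.221 CPM in control. In all 3 the lowest NaCl or raffinose library, at 2.5 CPM or more, was above the highest urea or control library, at 0.822 CPM or less.

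**Figure D2:**
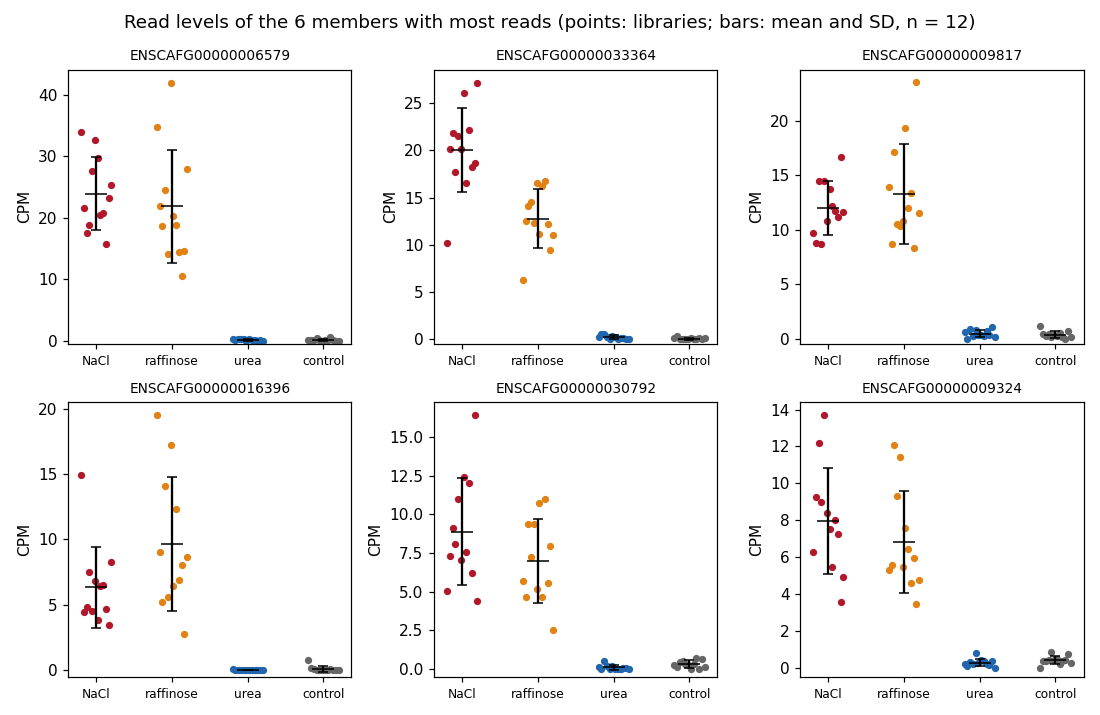
CPM in each library (points) of the 6 members with the most reads, by group in the order NaCl, raffinose, urea and control; black bars give the mean and SD of 12 libraries. In ENSCAFG00000006579 the NaCl libraries lie between 15.8 and 33.9 CPM and no urea or control library exceeds 0.716 CPM.

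Levels of different genes were compared per length of exon. Over the NaCl and raffinose means the members had a median of 1.56 CPM per kb of exon and ran from 0.272 to 19.9 CPM per kb. On this scale ENSCAFG00000034880, with 118 bases of exon, came first at 19.9 CPM per kb. It was followed by ENSCAFG00000033364 at 16.7, ENSCAFG00000009817 at 11.2, ENSCAFG00000020860 at 11.0, ENSCAFG00000036663 at 9.72 and ENSCAFG00000006579 at 8.77 CPM per kb. ENSCAFG00000034880, ENSCAFG00000020860 and ENSCAFG00000036663 hold under 500 bases of exon each, where few reads make up a high level per kb.

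In 5 members at most 3 reads were found over all 12 control libraries, and in 8 members over all 12 urea libraries. ENSCAFG00000003504, a gene of 22 exons that spans chr11:70248612-70977896, is the clearest case. It had 821 reads after NaCl, 748 after raffinose, 1 after urea and 1 in control. Relative to all reads of each group, the NaCl to control ratio was 768, with an exact 95% counting interval of 137 to 30400. The raffinose to control ratio was 773 (138 to 30600). The intervals cover the counting error of the pooled reads only and leave out the spread between passages. The rule used these contrasts, so the intervals are a description and no test. The level of ENSCAFG00000003504 ran from 2.66 to 9.31 CPM after NaCl and from 3.5 to 10.8 CPM after raffinose.

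ENSCAFG00000014960 (chr30:15885969-16103140, 31 exons) had 597 reads after NaCl and 537 after raffinose, against 2 after urea and 2 in control. ENSCAFG00000011196 (chr4:3935168-4016300, 20 exons) had 335 and 424 reads after NaCl and raffinose, 1 after urea and 2 in control. In ENSCAFG00000036663 (chr3:56861677-56862605) there were 494 reads after NaCl, 378 after raffinose, 0 after urea and 7 in control. These genes were read in every NaCl and raffinose library and in at most 5 of the 12 libraries of urea or of control.

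The limits of the rule cut through a continuous range of values. ENSCAFG00000004299 (0.492 CPM) and ENSCAFG00000008433 (0.486 CPM) lay just under the control limit, and ENSCAFG00000032405 (0.502 CPM) and ENSCAFG00000012331 (0.511 CPM) just over it. For the NaCl mean, ENSCAFG00000029126 (2.02 CPM) and ENSCAFG00000018864 (2.04 CPM) were just inside, and ENSCAFG00000014675 (1.97 CPM) and ENSCAFG00000004242 (1.95 CPM) just outside.

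For the raffinose mean, ENSCAFG00000024686 (2.35 CPM) and ENSCAFG00000034880 (2.38 CPM) were the nearest inside, and ENSCAFG00000019522 (1.97 CPM) and ENSCAFG00000017863 (1.93 CPM) the nearest outside. The lowest NaCl to raffinose ratios inside were 0.625 in ENSCAFG00000017958 and 0.626 in ENSCAFG00000018864, and the nearest outside were 0.611 in ENSCAFG00000000221 and 0.595 in ENSCAFG00000028703. At the high end the members ENSCAFG00000033364 (1.57) and ENSCAFG00000019993 (1.45) came closest to the limit, and no gene was left out for too high a ratio. A ratio that was too low left out 14 genes.

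Within the allowed range, 43 members had a lower mean after NaCl than after raffinose and 13 had a higher one. The median NaCl to raffinose ratio was 0.835, and the ratios ran from 0.625 to 1.57. The rule limits this ratio, so no test was made.

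Urea is the comparison that the rule did not use, apart from the upper limit it set on the control level. All 56 members could be tested with edgeR's quasi-likelihood test on the counts of all 48 libraries, with Benjamini-Hochberg adjustment over 12654 genes and a threshold of 0.05. After urea 11 members rose (19.6% of the members, against 27.4% of all tested genes) and 5 fell (8.93%, against 24.9%). The other 40 were not called. The median log2 fold change of urea over control was 0.00 over the members and 0.02 over all tested genes, with 28 members positive and 28 negative. With the passage as a replicate block 12 members were called higher and 8 lower, against 32% and 29% of all genes. The members met the test's minimum of reads mainly through their NaCl and raffinose libraries: with only the urea and control libraries 2 of the 56 had enough reads to be tested, ENSCAFG00000015685 and ENSCAFG00000019993, and both were called higher. With no such minimum all 56 were tested, and 10 were called higher and 4 lower, against 13.5% and 13.2% of 25518 genes. Whether the members are called more or less often than other genes thus depends on which genes stand beside them, and nothing is read from the shares.

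The clearest rise after urea was in ENSCAFG00000015685, a gene of 8 exons at chr26:38534129-38555735. Its level was 1.25 CPM at the lowest, 1.77 at the median and 3.06 at the highest after urea, against 0, 0.215 and 0.389 CPM in control. All 12 urea libraries were above all 12 control libraries, which held for no other member and for 3.45% of all tested genes. The log2 fold change was 3.0 ± 0.31 (SE; edgeR adjusted p = 6.97e-12). The urea mean of 1.83 ± 0.491 CPM was 51.1% of the level after the impermeant solutes (3.37 ± 1.39 CPM after NaCl and 3.78 ± 1.63 CPM after raffinose).

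ENSCAFG00000019993, with 2 exons at chr6:48897857-48900037, had 1.2, 2.16 and 3.19 CPM (lowest, median, highest) after urea, against 0, 0.444 and 1.26 CPM in control. The groups overlapped by their edges, and urea was above control in 12 of 12 same-passage pairs. Its log2 fold change was 2.17 ± 0.31 (edgeR adjusted p = 5.99e-08). ENSCAFG00000004299, with 16 exons at chr2:7365708-7450893, had 0.798, 1.29 and 2.37 CPM after urea, against 0.132, 0.517 and 1.06 CPM in control. It too was higher after urea in 12 of 12 pairs, by a log2 fold change of 1.58 ± 0.23 (edgeR adjusted p = 7.87e-08), and its control mean lay just under the limit of the rule. Unlike ENSCAFG00000019993, it had too few reads to be tested in the urea and control libraries alone. The urea means were 35.5% of the mean NaCl and raffinose level for ENSCAFG00000019993 and 40.6% for ENSCAFG00000004299.

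These 3 members made up most of what urea added to the members as a whole. The summed level over the 56 genes was 5.32 CPM higher after urea than in control, of which 4.25 CPM came from the 3. The other members together had 12.3 CPM after urea and 11.3 CPM in control.

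The other 8 members that rose after urea had fewer reads there, and like ENSCAFG00000004299 none of them had enough to be tested in the urea and control libraries alone. ENSCAFG00000029180 had 125 reads after urea and 52 in control, a log2 fold change of 1.35 ± 0.36 (edgeR adjusted p = 0.00158). ENSCAFG00000015298 had 87 and 42 reads (1.16 ± 0.31; edgeR adjusted p = 0.00146). ENSCAFG00000018864 had 32 and 8 reads (1.90 ± 0.59; edgeR adjusted p = 0.00602). In ENSCAFG00000028907 there were 17 reads after urea and 2 in control, a ratio of 8.81 relative to all reads of each group, with a 95% counting interval of 2.09 to 78.6.

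In ENSCAFG00000033364, the second of the members by reads, the rise after urea was small beside that after NaCl. It had 27 reads over the urea libraries and 11 over the control libraries (log2 fold change 1.31 ± 0.52; edgeR adjusted p = 0.0301). The call was lost with no filter (edgeR adjusted p = 0.0501) and without passage 5, 7 or 10 (edgeR adjusted p of 0.125, 0.0567 and 0.0661). It was also lost without only the urea library of passage 5 (1.09, edgeR adjusted p = 0.0829). The urea mean of ENSCAFG00000033364 was 1.29% of its mean NaCl and raffinose level.

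The members that fell after urea were at the limit of detection there, and none of the 5 had enough reads to be tested in the urea and control libraries alone. ENSCAFG00000024497, at chr1:107781856-107786126, had 4 reads in 4 of the 12 urea libraries, against 33 reads in 9 of the 12 control libraries. Its level was 0.0289 ± 0.0441 CPM after urea and 0.246 ± 0.179 CPM in control, a log2 fold change of -2.53 ± 0.50 (edgeR adjusted p = 2.61e-05). Urea was below control in 9 of the 12 same-passage pairs and above it in 1. After NaCl and raffinose the same gene stood at 2.06 ± 0.431 and 2.45 ± 0.582 CPM, above every urea and control library. It was thus low after urea and high after the other solutes.

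ENSCAFG00000009756 had 8 reads after urea and 28 in control (log2 fold change -1.50 ± 0.50; edgeR adjusted p = 0.00915), and ENSCAFG00000023437 had 9 and 32 (-1.56 ± 0.57; edgeR adjusted p = 0.0185). Without passage 4 the call of ENSCAFG00000023437 was lost (edgeR adjusted p = 0.0565). ENSCAFG00000030792 had 13 reads after urea and 40 in control (-1.40 ± 0.60; edgeR adjusted p = 0.0443). Its call was lost with no filter (edgeR adjusted p = 0.0711) and without passage 1, 4, 7, 8, 13, 14 or 17 (edgeR adjusted p of 0.0566 to 0.114). ENSCAFG00000036663 had 0 reads after urea and 7 in control. With 3 reads over the group as the floor after urea it would be 2.25-fold lower. That value takes the 7 control reads as exact, so it is no lower bound on the change. The edgeR adjusted p of ENSCAFG00000036663 was 0.011, and with DESeq2 the adjusted p was 0.137. Like ENSCAFG00000024497, the other members that fell had too few reads to be tested in the urea and control libraries alone.

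**Figure D3:**
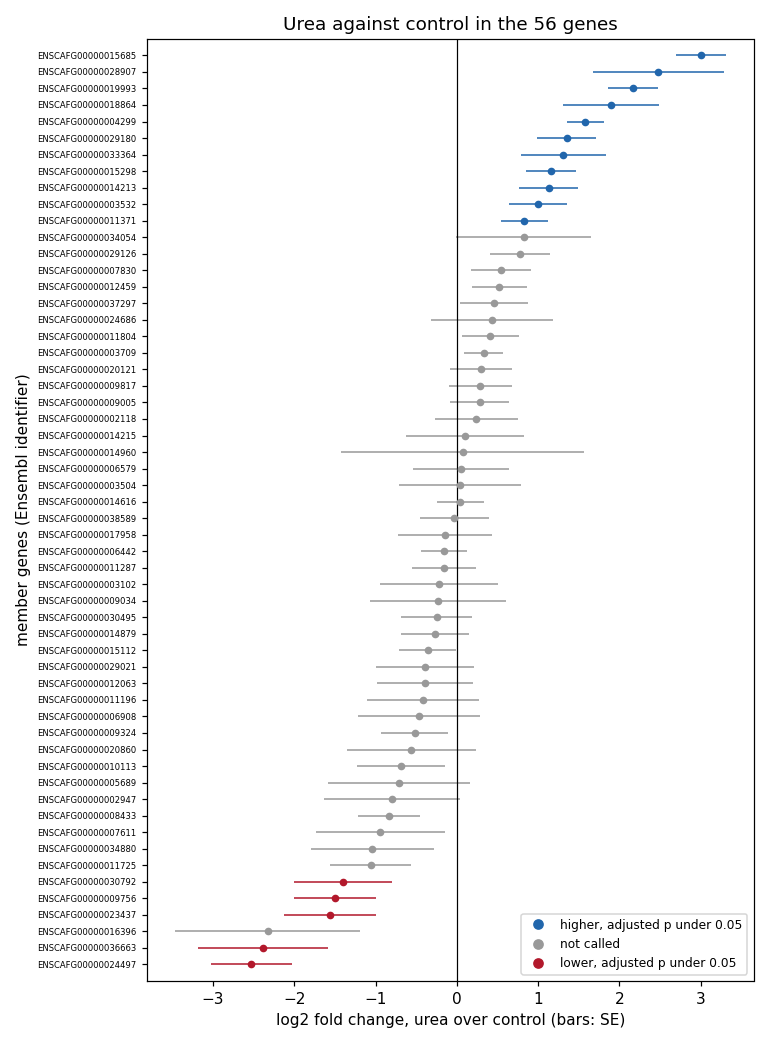
Log2 fold change of urea over control (x axis, points) with its SE (bars) in each of the 56 members, sorted by size. Blue marks the 11 members called higher, red the 5 called lower and grey the 40 not called; ENSCAFG00000015685 stands highest at 3.0 and ENSCAFG00000024497 lowest at -2.53.

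From passage to passage the members varied widely. The coefficient of variation over 12 libraries had a median of 36.3% after NaCl (18.8% to 83.9%) and of 35.2% after raffinose (14.7% to 82.1%). ENSCAFG00000014960 had the highest in both groups. Counting error is part of this spread.

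Whether the variation recurred in cells of the same passage was tested by relating the NaCl and the raffinose level of a gene, as log2(CPM + 1), over the 12 passages. The members had a median Pearson r of 0.59 (from -0.40 to 0.97), with a median of 0.49 over all tested genes. The relation was positive and passed a permutation test, with Benjamini-Hochberg adjustment over 12654 genes, in 15 members (26.8%, against 20% of all tested genes). With Spearman's rho 10 members passed (17.9%, against 11.9% of all tested genes). Without the 2 passages farthest from the median NaCl level the members' median r was 0.46, against 0.38 for all tested genes.

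ENSCAFG00000014960 had the closest relation between NaCl and raffinose levels of the same passage. Its Pearson r between NaCl and raffinose levels was 0.97 (permutation p = 1e-05, the smallest that 100000 permutations can give; adjusted p = 0.00178; n = 12 passages). Spearman's rho was 0.90 (permutation test, adjusted p = 0.0101), and r without the 2 farthest passages was 0.97. After NaCl its levels at passages 5, 8, 11, 14 and 17 were 3.94, 4.98, 9.86, 6.21 and 12.5 CPM. At the other 7 passages the NaCl levels lay between 1.12 and 3.02 CPM.

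After raffinose the levels of ENSCAFG00000014960 at passages 5, 8, 11, 14 and 17 were 4.96, 6.21, 8.21, 8.16 and 11.8 CPM, and at the other 7 passages 1.32 to 3.26 CPM. In both groups the same 5 passages stood above the other 7 without overlap. Their numbers are 3 apart, as are those of the other 7 (1, 4, 7, 10, 13, 16 and 19). The passages were picked out after the values were seen, so no test of them was made. The gene stayed at or near 0 at all passages after urea and in control, at 0.114 CPM or less.

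ENSCAFG00000030792 was high at the same passages. Its level at passages 5, 8, 11, 14 and 17 was 9.08 to 16.4 CPM after NaCl, and at the other 7 passages 4.4 to 8.1 CPM. After raffinose it was 7.96 to 11.0 CPM at these 5 passages and 2.5 to 7.21 CPM at the others. Its Pearson r between NaCl and raffinose was 0.81 (permutation test, adjusted p = 0.0193), with a rho of 0.79 (adjusted p = 0.0383). ENSCAFG00000014960 and ENSCAFG00000030792 also had the highest correlation of any pair of members over the 24 NaCl and raffinose libraries, 0.85 after group means were removed. These libraries share their depth and passage, and the value is a description.

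ENSCAFG00000016396 ran the other way after raffinose. Its raffinose levels were 2.78 to 6.89 CPM at passages 5, 8, 11, 14 and 17 and 8.06 to 19.5 CPM at the other 7 passages. After NaCl the ranges overlapped, with 3.47 to 6.5 CPM at these 5 passages and 4.47 to 14.9 CPM at the others. The labels give only the passage number, and whether cultures differed in another way between these passages was not tested.

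ENSCAFG00000017958 (chr20:51037378-51074394, 67 exons) stood out at a single passage. Its level at passage 1 was 15.6 CPM after NaCl and 18.7 CPM after raffinose, whereas the other passages lay between 2.19 and 6.81 CPM after NaCl and between 4.7 and 8.97 CPM after raffinose. The Pearson r was 0.93 (permutation test, adjusted p = 0.00739) and 0.74 without the 2 farthest passages, which include passage 1. Spearman's rho was 0.61 (permutation test, adjusted p = 0.136), so the relation was weaker by rank and without these 2 passages.

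**Figure D4:**
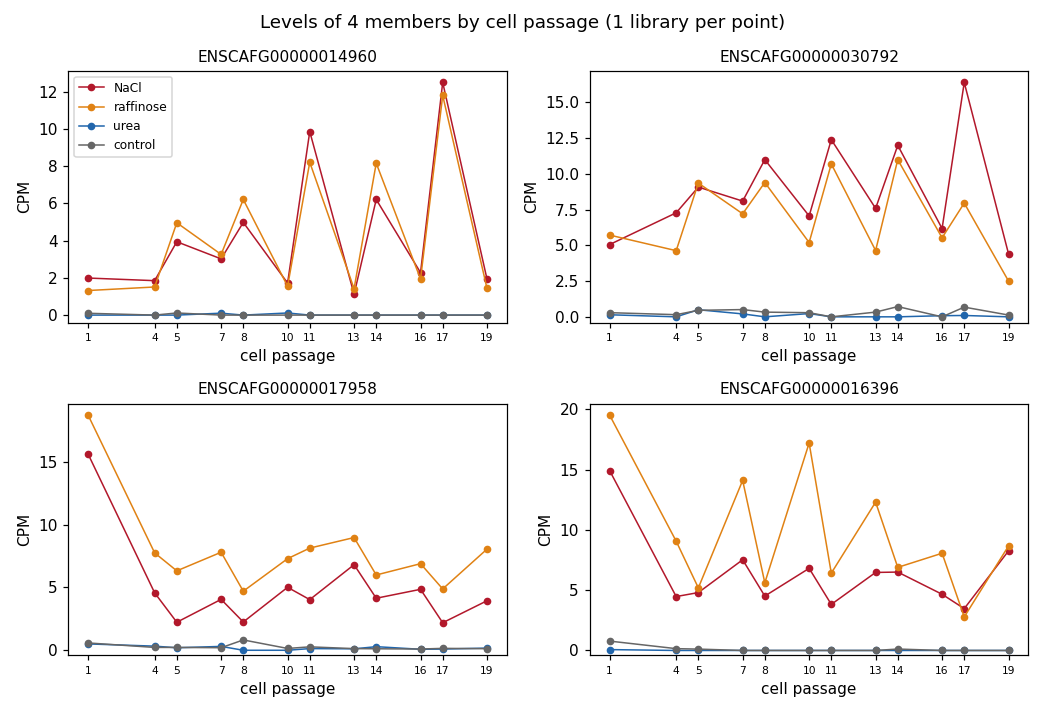
CPM (y axis) by cell passage (x axis) of 4 members after NaCl, raffinose and urea and in control, with 1 library per point. In ENSCAFG00000014960 the NaCl and raffinose lines peak together, at 12.5 and 11.8 CPM at passage 17, and in ENSCAFG00000017958 they are highest at passage 1 (15.6 and 18.7 CPM).

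Members did not vary as 1 block. Over the 24 NaCl and raffinose libraries the 1540 pairs of members had a median correlation of 0.05, with 110 pairs above 0.5 and 79 below -0.5. The lowest was -0.78, between ENSCAFG00000005689 and ENSCAFG00000038589. Of the 56 members, 14 had their highest NaCl library at passage 17 and 9 at passage 1; for raffinose these numbers were 10 and 11.

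A steady trend over passages was tested on the counts of the NaCl and the raffinose library of each passage summed together (12 sums). With edgeR 0 of the 56 members had a slope with an adjusted p under 0.05, against 0.00732% of 13652 genes. An unadjusted edgeR p under 0.05 was found for 14 of the 56 members, against 8.59% of all genes. In a fit of the 24 single libraries 3 of the 56 members were called, all rising with passage. Among all genes 0.724% were called as rising in that fit. ENSCAFG00000003102, at chr14:43592297-43605779, had the steepest slope. It gained 1.03 ± 0.17 log2 units per 10 passages in the 24 libraries (edgeR adjusted p = 0.00189) and 1.05 ± 0.20 in the sums (edgeR adjusted p = 0.16). Its highest levels, 5.94 CPM after NaCl and 7.87 CPM after raffinose, were both at passage 19. The other 2 were ENSCAFG00000010113 (0.87 ± 0.19; edgeR adjusted p = 0.0135) and ENSCAFG00000034054 (0.61 ± 0.16; edgeR adjusted p = 0.042). The 2 libraries of a passage share a passage number, and the fit of single libraries counts them apart. Members come from the same libraries and some vary together, so nothing is read from their shares beside those of all genes.

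The members lay on 27 chromosomes, with 5 on chromosome 2 and 4 each on chromosomes 14, 26 and X. They had a median of 2450 bases of exon and a span of 22.9 kb, against 2293 bases and 19.7 kb over all tested genes. Their median number of exons was 6, against 9 for all tested genes, and 20 members (35.7%) had at most 3 exons, against 20.8%. A single exon was annotated for 6 members (10.7%), against 6.89% of all tested genes. Against the 25518 genes with a read the differences in exon number turn round: such genes had a median of 5 exons, 42.1% had at most 3 and 14.2% had a single one. These are descriptions of the annotation, with no test.

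In 6 places a pair of members lay within 1 Mb of each other. The closest were ENSCAFG00000014213 (chr5:21671558-21695759) and ENSCAFG00000014215 (chr5:21746582-21785260), 50.8 kb apart with 1 gene between them. ENSCAFG00000014213 averaged 2.89 ± 1.14 CPM after NaCl and 3.28 ± 1.48 CPM after raffinose, and ENSCAFG00000014215 averaged 2.70 ± 1.03 CPM after NaCl and 3.35 ± 1.12 CPM after raffinose. After urea ENSCAFG00000014213 rose, with 96 reads after urea against 48 in control (log2 fold change 1.13 ± 0.36, edgeR adjusted p = 0.00642). It had too few reads to be tested in the urea and control libraries alone. Its urea mean of 0.859 CPM became 0.705 CPM without the library of passage 8 (2.55 CPM), against a control mean of 0.374 CPM. ENSCAFG00000014215 had 5 reads after urea and 5 in control. Whether the urea response differed between them was not tested.

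The next pair, ENSCAFG00000028907 (chr8:2627108-2628917) and ENSCAFG00000029180 (chr8:2791807-2794950), was 163 kb apart with 6 genes between. Both were called higher after urea, though neither had enough reads to be tested in the urea and control libraries alone. ENSCAFG00000028907 averaged 0.132 ± 0.161 CPM after urea and 0.0145 ± 0.0342 CPM in control, and ENSCAFG00000029180 averaged 0.988 ± 0.459 CPM after urea and 0.417 ± 0.376 CPM in control. The other 4 pairs were 255 to 777 kb apart. The omitted genes ENSCAFG00000032573 and ENSCAFG00000013396 lie 12.6 kb from each other on chromosome 6.

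The nearest gene on each side of a member, chosen by place and not by its values, was examined next. There were 111 such neighbours that were no members and did not overlap one, 98 of them within 100 kb, and 53 had enough reads for edgeR's test. After NaCl 30 of the 53 rose (56.6%, against 34.6% of all tested genes) and 14 fell (26.4%, against 36.1%). After raffinose 32 rose (60.4%, against 36.7%) and 12 fell (22.6%, against 38.2%). After urea 17 rose (32.1%, against 27.4%) and 15 fell (28.3%, against 24.9%). The 2 impermeant solutes share the control libraries.

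The median log2 fold change of the neighbours was 0.41 after NaCl and 0.49 after raffinose, against -0.02 for all tested genes in each, and 0.09 after urea, against 0.02. A log2 fold change of at least 1 was reached after NaCl by 15 neighbours (28.3%, against 9.82% of all tested genes) and after raffinose by 20 (37.7%, against 12.1%). Within 100 kb 28 of 45 neighbours rose after NaCl (62.2%, against 34.6% of all tested genes) and 30 of 45 after raffinose (66.7%, against 36.7%). Beyond 100 kb 2 of 8 (25%) did so in each comparison, against the same shares of all tested genes. With only 8 genes there, nothing is read from the distance. Among neighbours with a control mean of at least 1 CPM, a limit chosen after seeing the data, 24 of 47 rose after NaCl (51.1%, against 32.6% of such genes) and 26 of 47 after raffinose (55.3%, against 34.5%).

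With library totals alone as the scale, the median of all tested genes moved to -0.19 after NaCl and -0.25 after raffinose. On that scale 26 neighbours rose after NaCl, against 25.3% of all genes, and 27 after raffinose, against 26%. Of all calls, 34.5% were then higher after NaCl in place of 48.9%, and 33.4% after raffinose in place of 49%. For urea 40.1% of all calls were higher in place of 52.3%, with the median of all genes at -0.05.

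The neighbour with the highest fold change was ENSCAFG00000005012 on chromosome 19, 29.7 kb from the member ENSCAFG00000038589. It averaged 1.61 ± 0.385 CPM after NaCl, 1.58 ± 0.415 CPM after raffinose, 0.0647 ± 0.0842 CPM after urea and 0.0319 ± 0.0746 CPM in control, and so itself came near the rule's limit of 2 CPM. The log2 fold change was 5.15 ± 0.37 after NaCl. This neighbour had enough reads to be tested only through its NaCl and raffinose libraries, where it is high, so no p-value is given for it. Next came ENSCAFG00000013863 (chr3:56729184-56786497), 75.2 kb from the member ENSCAFG00000036663 and expressed in control. It averaged 507 ± 127 CPM after NaCl, 407 ± 159 CPM after raffinose, 11.7 ± 8.75 CPM after urea and 16.6 ± 17.9 CPM in control (log2 fold change after NaCl 5.08 ± 0.34; edgeR adjusted p = 4.19e-19).

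**Figure D5:**
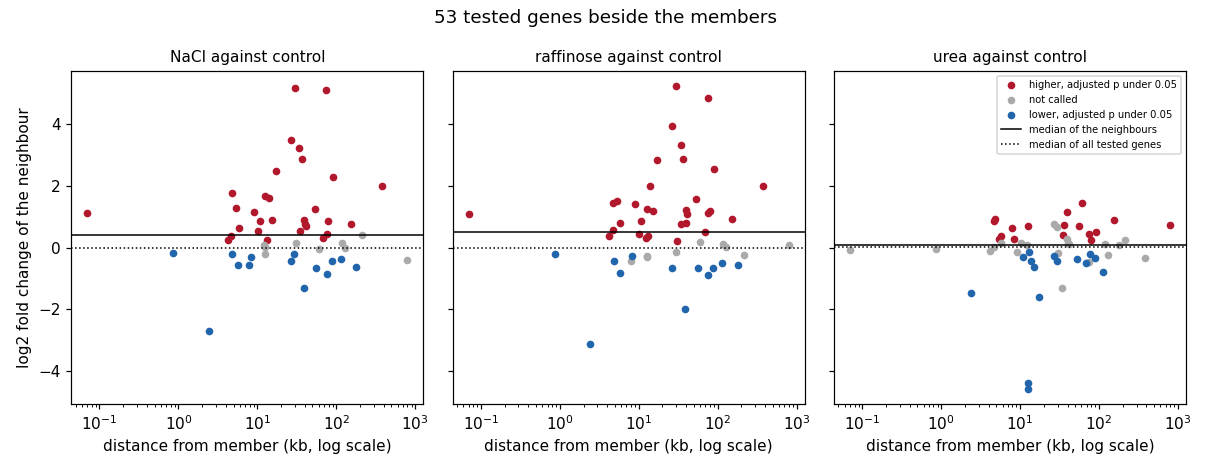
Log2 fold change over control (y axis) of the 53 tested genes beside the members, by distance from the member in kb (x axis, log scale), after NaCl, raffinose and urea. Red points were called higher, blue lower and grey neither; the solid line is the median of the neighbours (0.41, 0.49 and 0.09) and the dotted line that of all tested genes (-0.02, -0.02 and 0.02).

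Some members lie inside or across another gene, which limits what their reads show, since reads were counted without regard to strand. The spans of 14 members overlap 17 other genes, of which only 6 were tested. Of these 6, 5 rose after NaCl (against 34.6% of all tested genes) and 5 after raffinose (against 36.7%). Among those that rose, ENSCAFG00000000470 met the test's minimum of reads only through libraries with an added solute. The clearest case is ENSCAFG00000020860, a single exon of 314 bases at chr27:42289870-42290183 that lies within an intron of ENSCAFG00000015756 on the same strand. That host gene averaged 1480 ± 194 CPM after NaCl, 1790 ± 266 CPM after raffinose, 3.25 ± 6.09 CPM after urea and 6.15 ± 4.42 CPM in control. The member itself averaged 3.07 ± 1.3 CPM after NaCl, 3.81 ± 1.13 CPM after raffinose, 0.012 ± 0.0416 CPM after urea and 0.0274 ± 0.0412 CPM in control. Whether its reads come from the unspliced host transcript was not tested.

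ENSCAFG00000037297 overlaps the span of ENSCAFG00000000345 on the other strand, which rose by a log2 fold change of 3.21 ± 0.21 after NaCl (edgeR adjusted p = 2.29e-19) and 3.78 ± 0.21 after raffinose (edgeR adjusted p = 2.85e-22). ENSCAFG00000029021 shares 308 exon bases with ENSCAFG00000000075 on the opposite strand, the only member with such a shared exon. ENSCAFG00000000075 averaged 21 ± 4.62 CPM after NaCl, 28.3 ± 5.07 CPM after raffinose and 1.32 ± 0.483 CPM in control, so reads in the shared bases cannot be told apart.

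ENSCAFG00000034880, with its 118 bases of exon at chr12:566705-573172, lies inside ENSCAFG00000000470 on the same strand. The host had a log2 fold change of 2.58 ± 0.33 after urea, at 1.10 ± 0.556 CPM after urea and 0.179 ± 0.16 CPM in control. It met the test's minimum of reads only with its NaCl and raffinose libraries, where it is also high, so no p-value is given for it. The member had 1 read after urea and 4 in control, against 319 after NaCl and 285 after raffinose. Whether the urea response differed between member and host was not tested.

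The genes outside the set whose level over the 48 libraries was most like the mean of the members, by Pearson's r of log2(CPM + 1), were ENSCAFG00000001290 (0.995), ENSCAFG00000002440 (0.993) and the omitted ENSCAFG00000006942 (0.993). ENSCAFG00000001290 averaged 552 ± 176 CPM after NaCl, 769 ± 183 CPM after raffinose, 17.0 ± 2.65 CPM after urea and 16.2 ± 3.43 CPM in control. ENSCAFG00000002440 averaged 221 ± 67.1 CPM after NaCl, 300 ± 73.7 CPM after raffinose, 7.37 ± 1.8 CPM after urea and 7.62 ± 1.35 CPM in control. ENSCAFG00000006942 averaged 201 ± 38.4 CPM after NaCl, 207 ± 44.1 CPM after raffinose, 0.219 ± 0.541 CPM after urea and 0.289 ± 0.447 CPM in control. In each of these genes the NaCl and raffinose means were far above the urea and control means. The rule fixed such a gap over control in the members, so a high r follows in part from that contrast and is a description.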

How the data were processed

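RNA of 48 libraries of MDCK I cells was sequenced as single reads from polyadenylated RNA with the TruSeq RNA kit, version 2, per the labels' protocols. The authors deposited raw read counts per gene; CASAVA, HISAT2 2.0.5 and featureCounts 1.5.1 were used, per the submitters' processing notes. Per the file headers, counting was over exons and unstranded, with totals per gene of Ensembl release 87 on CanFam3.1, and the command sets nothing for reads with several matches. Exon lengths are those the authors deposited with the counts. No columns of values were left unused (0), and at passage 10 the 4 column names have an extra number, the meaning of which is not given in the sources used here.

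The members and lists were chosen with earlier results of these data known. CPM are counts over library totals. The test was edgeR 4.0.16 under R 4.3.3 (filterByExpr, 12654 genes; TMM factors; quasi-likelihood test over all 48 libraries; Benjamini-Hochberg threshold 0.05), after tests on simulated data. The coefficient of biological variation was 17%. Dividing a log2 fold change by the square root of F gave its SE. The passage number of the labels pairs libraries; deviations of same-passage urea and control libraries had a mean correlation of 0.36 (0.03 to 0.66, over 0.1 in 11 of 12 pairs). No libraries of a group agreed within sampling noise, since the lowest chi-square per gene over 264 pairs was 4.99. Permutation tests were two-sided (SciPy 1.17.1). Intervals are exact binomial. Genes named are the 6 members with the most reads, members at each limit, called after urea or by passage, near each other or with extreme ratios, the 2 neighbours with the highest fold changes after NaCl and 3 genes of like pattern; members named for few reads, host genes or passage pattern were chosen after their values were seen. Alternatives were RLE factors, library totals, no filter, DESeq2 1.42.0, the replicate block, only the 2 groups compared, other limits and each passage left out.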

Additional observations from a re-analysis of the deposited data

How the results depend on the processing

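Other limits changed the number of members from 56 to 33 with a control mean under 0.25 CPM, 105 with one under 1 CPM, 151 with solute means of at least 1 CPM and 18 with means of at least 4 CPM. Leaving out each passage gave 51 to 59, TMM-scaled totals 59 (51 shared) and no limit on the ratio 70. After urea 11 members rose and 5 fell. With each passage left out 10 to 12 rose and 4 to 6 fell, with the passage as a replicate block 12 and 8, and in a fit of only the 2 groups, where 2 members passed the filter, 2 and 0. Of the 16 called members, 10 were called under all alternatives that tested them, and 6 were lost under at least 1, with the same direction throughout. The 30 of 53 neighbours that rose after NaCl became 27 to 31 with passages left out, and the 32 after raffinose became 31 to 32. No filter and DESeq2 tested 102 neighbours in place of 53. With no filter 50 of the 102 rose after NaCl and 56 after raffinose, and with DESeq2 51 and 56. The share of all genes that rose in these 2 fits is not given here, so nothing is read from the larger counts. Members with a passage slope numbered 0 in the sums, 0 to 1 with passages left out (1 without passage 4, 13 or 16) and 3 in 24 libraries. Counts of 0 to 3 reads limit what can be said of single members after urea and in control.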
